A study of Homo sapiens with 11 samples.

Results

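The cullins and their RING partners are the cores of the cullin-RING ubiquitin ligases. The 10 genes described here are the scaffolds CUL1, CUL2, CUL3, CUL4A, CUL4B, CUL5, CUL7 and CUL9 and the RING subunits RBX1 and RNF7, taken by their symbols from the 58735 genes of the deposited count table. They were followed in polyadenylated RNA of HEK293T, a line of human embryonic kidney origin that carries the SV40 large T antigen, in 4 groups. The knockdown groups were cells 48 h after transfection with an siRNA against NAE1 (50 nM, siNAE1 with 3 libraries), UBE2M (70 nM, siUBE2M with 3) or URM1 (60 nM, siURM1 with 2). The control group (n = 3) is labelled as given a control siRNA, and the study's methods name a non-targeting siRNA as the negative control of its knockdowns, with no dose. The treatment notes list only the targeting siRNAs, and the study's supplement marks the control libraries HKWT, so whether these cells were transfected is uncertain. If they were not, a response to transfection cannot be told apart from that to a knockdown in any comparison with control. All groups were the same wild-type line. The replicates are called biological without saying what was separate between them, so the p-values here measure only the spread between these libraries.

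Each cullin is a long scaffold that holds substrate receptors at its amino-terminal end and a small RING protein at its carboxy-terminal end, where a ubiquitin-loaded enzyme docks. The scaffold is switched on when the ubiquitin-like protein NEDD8 is attached to a conserved lysine near its carboxy terminus. NAE1, with UBA3, is the enzyme that activates NEDD8, and UBE2M and UBE2F carry it to the cullins, UBE2M acting with RBX1 and UBE2F with RNF7 and CUL5. URM1 is another ubiquitin-like protein, known for its part in sulphur transfer to transfer RNAs. The study identifies NAE1, with UBA3, and UBE2M as enzymes that also drive the attachment of URM1 to proteins. It asked about genes that respond to URM1, NAE1 and UBE2M. The RNA values below say nothing about how much NEDD8 the cullin proteins carried.

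Total counts per library ranged from 11733163 to 16321391, and every member had at least 314 counts in each library. NAE1 stood at 39.0% of its control level in siNAE1 cells, UBE2M at 6.34% in siUBE2M cells and URM1 at 28.6% in siURM1 cells, so the targeted genes were low where the labels say. All 7 markers of HEK293T cells had a mean of 1 CPM or more in every group. CPM are counts brought to a common library size. The summed level of these markers was 425 to 453 CPM in control libraries and 538 to 746 CPM in knockdown libraries. Single markers moved both ways, as INA had 65.0 CPM in control, 40.5 in siNAE1, 47.5 in siUBE2M and 80.2 in siURM1 cells. None of 8 hepatocyte markers reached a mean of 1 CPM in any group, and 2 of 6 HeLa markers did in each. The summed HeLa markers stood at 9.48 to 11.1 CPM in control, 16.2 to 20.8 in siNAE1, 13.6 to 14.9 in siUBE2M and 13.2 to 15 CPM in siURM1 libraries, so every knockdown library lay above control. CAV1 was the largest part of the HeLa sum in every group. ANXA1 had 3.00 CPM in control, 2.16 in siUBE2M and 4.46 in siURM1 cells. The 3 leukocyte markers summed to 1.87 to 3.01 CPM in control and at most 1.7 in siNAE1 libraries. They summed to 2.32 to 3.76 in siUBE2M and 1.19 to 1.25 CPM in siURM1 libraries. Only LCP1 among them reached a mean of 1 CPM. The 4 markers of differentiated kidney summed to 1.93 to 2.78 CPM in control and 0.359 to 1.84 CPM in knockdown libraries, below control throughout, and the 3 endothelial markers to at most 0.269 CPM. The part of these markers in the members' values was not tested. In bulk RNA of this kind, fewer cells and less RNA per cell cannot be told apart, and every level is relative to the rest of the library.

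The stretch around the NEDD8 acceptor lysine is printed for the scaffolds in which a conserved run of residues ending in isoleucine, methionine and lysine was found in the main transcript, because this site ties these genes to the silenced enzymes. The 27 coding bases are given 5′ to 3′ on the coding strand, from GENCODE v44 transcripts on GRCh38, with the codon of the lysine in capitals.
CUL1: gtgagaatcatgAAGatgaggaaggtt
CUL2: gttcgtatcatgAAAgcacgaaaagtg
CUL3: gtgcggataatgAAAtctagaaagaag
CUL4A: gtcagaataatgAAGatgagaaagact
CUL4B: gttcgaattatgAAGatgagaaagaca
CUL5: atacaaataatgAAAatgagaaagaaa

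The run was found once in each of the 6 classical cullins, and its lysine is residue 720 of 776 in CUL1, 689 of 745 in CUL2, 712 of 768 in CUL3, 705 of 759 in CUL4A, 841 of 895 in CUL4B and 724 of 780 in CUL5. It therefore lies 54 to 56 residues before the end of each protein. Each stretch sits within a single exon, which is the last one in CUL5 (exon 19, chr11:108104199-108104225) and the last but 1 in the others (for CUL1 exon 21 of 22, chr7:148799284-148799310). The close relatives CUL4A (chr13:113260676-113260702) and CUL4B (chrX:120530159-120530185, minus strand) share 23 of the 27 bases, more than any other of the 15 pairs, and the other pairs share 14 to 22. The same search found no match in CUL7, CUL9, RBX1 or RNF7, which says only that this run of residues is not in their main transcripts.

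Levels of different genes were compared per length, as the FPKM (fragments scaled for gene length and library size) that the authors deposited. In control cells CUL1, the scaffold of the SCF ligases, had the highest level at 59.2 ± 2.94 FPKM (SD, n = 3). RBX1 followed at 23.8 ± 1.28, then CUL4B at 20.9 ± 0.480, RNF7 at 17.8 ± 1.38 and CUL4A at 11.8 ± 0.520 FPKM. The remaining scaffolds lay lower and closer together, with CUL2 at 10.1 ± 0.863, CUL5 at 8.88 ± 1.19, CUL7 at 7.92 ± 0.234, CUL3 at 6.83 ± 0.0549 and CUL9 at 4.63 ± 0.110 FPKM. In this order the control libraries overlapped only between CUL2 and CUL5 and between CUL5 and CUL7. The order of the first 4 genes was the same in siNAE1 and siUBE2M cells, and in siNAE1 cells RBX1 reached 40.5 ± 1.46 FPKM against 48.6 ± 3.39 for CUL1, an order that main transcript lengths reverse. In siURM1 cells RNF7 stood before CUL4B, at 23.4 ± 2.47 FPKM (n = 2), but its libraries overlapped those of CUL4B. Further down, neighbours overlapped in siNAE1 cells (CUL4A with CUL5, CUL5 with CUL2, CUL7 with CUL3), in siUBE2M cells (CUL5 with CUL2, CUL2 with CUL4A, CUL7 with CUL3) and in siURM1 cells (CUL4A with CUL7).

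The place of RBX1 depends on the length used for it. The listed length of RBX1 is 3092 bases, against 1169 for its main transcript, while CUL1 has 3548 against 3147. With main transcript lengths, RBX1 had 63.1 ± 3.39 and CUL1 66.8 ± 3.32 FPKM in control cells, a gap smaller than the sum of their SDs. On that scale RBX1 stood first in each knockdown, at 107 ± 3.86 against 54.7 ± 3.82 for CUL1 in siNAE1, 90.3 ± 4.11 against 65.0 ± 2.89 in siURM1 and 73.0 ± 6.25 against 69.2 ± 0.519 FPKM in siUBE2M cells, where the gap was within the SD of RBX1. In control cells CUL3, at 11.6 ± 0.0935 FPKM, then stood above CUL5 (9.70 ± 1.31) and CUL7, while in siURM1 cells CUL5 (11.5 ± 0.635) stayed above CUL3 (9.56 ± 0.346). The length does not touch any comparison of a gene between groups.

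Taken as shares of the summed FPKM of the 8 cullins, CUL1 made up 45.5% ± 1.70 in control cells (SD, n = 3), 43.1% ± 1.33 in siNAE1 cells, 49.2% ± 1.55 in siUBE2M cells and 46.3% ± 1.35 in siURM1 cells (n = 2). CUL4B held 16.1% ± 0.450 in control cells and stood at 18.4% ± 0.909, 14.1% ± 0.334 and 17.9% ± 0.148 in the knockdowns in the same order. The share of CUL4A was 9.04% ± 0.566 in control, 8.93% ± 0.260 in siNAE1, 7.53% ± 0.148 in siUBE2M and 7.01% ± 0.248 in siURM1 cells. CUL9, the smallest contributor, went from 3.56% ± 0.135 in control cells to 1.91% ± 0.220, 2.75% ± 0.224 and 2.26% ± 0.341. CUL1 thus remained the main scaffold transcript in every group, and CUL9 was the scaffold with the lowest share in each of them.

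Each knockdown was compared with control in a fit across all 18368 genes that passed a filter on low counts, all 10 members among them (the quasi-likelihood test of edgeR, p-values adjusted by Benjamini-Hochberg, called at an adjusted p under 0.05). The largest single changes against control were those of CUL9, RBX1 and RNF7. CUL9 was lower and RBX1 higher in every knockdown, and RNF7 was lower in siUBE2M cells and higher in siURM1 cells. CUL4A was the third member called in every knockdown, lower each time, while CUL2 and CUL5 were called in none of the reported comparisons with control, although each was called under some alternatives. The 3 comparisons share the control libraries, so agreement between them is not independent.

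In siNAE1 cells 5 of the 10 members were called, 1 higher and 4 lower, beside 54.7% of all tested genes (27.6% higher and 27.1% lower). In siUBE2M cells 5 were called, 1 higher and 4 lower, beside 45.3% of all genes (22.7% higher and 22.6% lower). In siURM1 cells 5 were called, 2 higher and 3 lower, beside 41.6% of all genes (20.8% higher and 20.8% lower). The share of members called was close to the background each time. The median log2 fold change of the members was -0.14, -0.13 and -0.05 in siNAE1, siUBE2M and siURM1 cells, beside -0.0021, 0.0075 and -0.021 over all tested genes. CUL9 in siNAE1 cells was the only member past a 2-fold change, beside 13.9% of tested genes that were both called and past that size in siNAE1 cells, 7.11% in siUBE2M cells and 7.62% in siURM1 cells.

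**Figure D1:**
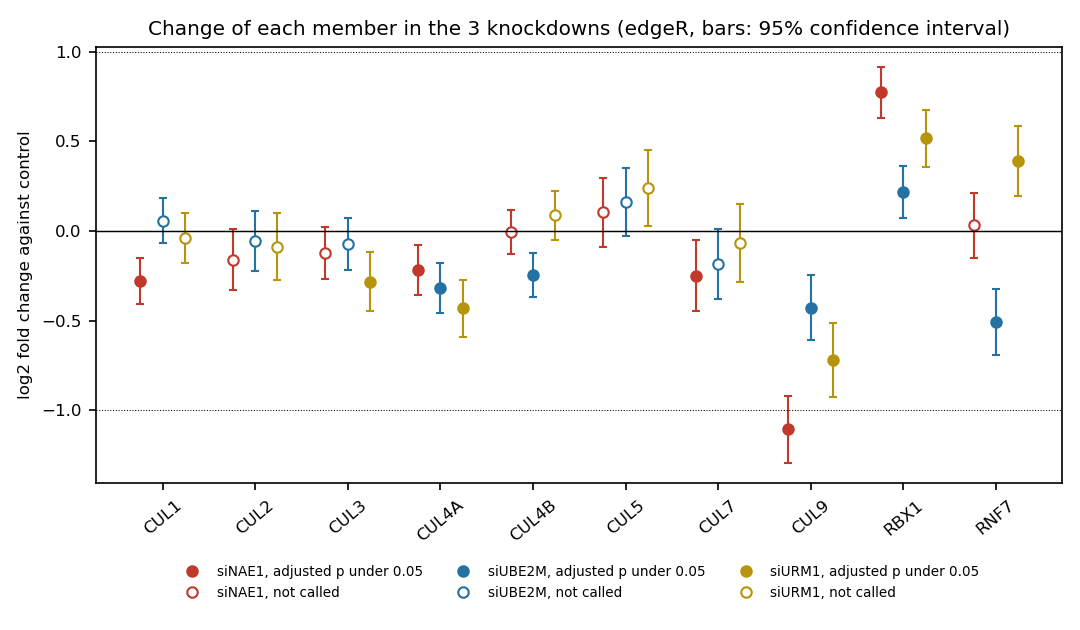
Log2 fold change of each of the 10 members against control (y axis) in siNAE1, siUBE2M and siURM1 cells; points are edgeR estimates, lines their 95% confidence intervals, filled points have an adjusted p under 0.05, and dotted lines mark a 2-fold change. CUL9 lies below 0 and RBX1 above 0 in all 3 knockdowns, and RNF7 lies on opposite sides in siUBE2M (-0.51) and siURM1 (0.39).

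CUL1 (ENSG00000055130, chromosome 7, 148697914 to 148801036) is the scaffold that joins RBX1 to SKP1 and the F-box proteins. Its libraries had 212, 222 and 202 CPM in control and 164, 188 and 171 CPM in siNAE1 cells. They had 219, 220 and 222 CPM in siUBE2M cells and 200 and 213 CPM in siURM1 cells. The siNAE1 libraries all lay below the control libraries, while the other groups overlapped them. CUL1 fell by 0.28 on the log2 scale in siNAE1 cells (log2 fold change -0.28, SE 0.06, adjusted p = 3.0e-04, edgeR). In siUBE2M and siURM1 cells its log2 fold changes were 0.06 (SE 0.06) and -0.04 (SE 0.07), neither of which was called.

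CUL2 (ENSG00000108094, chromosome 10, 35008551 to 35090642), which works with elongins B and C and the VHL protein, was at 47.4 to 55.3 CPM in control libraries. It had 42.3 to 49.9 CPM in siNAE1, 46.6 to 53.2 in siUBE2M and 47.7 and 50.6 CPM in siURM1 libraries. The groups overlapped throughout, and the log2 fold changes were -0.16, -0.06 and -0.09 with SEs of 0.08, 0.08 and 0.09. In siNAE1 cells CUL2 was called lower with libraries scaled by total counts (-0.29, adjusted p = 0.0056), with a minimum of 10 counts in every library (-0.19, adjusted p = 0.048) and without control replicate 1 (-0.23, adjusted p = 0.038), and was at -0.044 with GC and length trends removed, in a range of adjusted p from 0.0056 to 0.62 (edgeR). CUL5 (ENSG00000166266, chromosome 11, 108008733 to 108107776), which pairs the elongins with SOCS-box receptors and RNF7, ranged over 53.3 to 69.0 CPM within the control group alone. Its knockdown libraries spanned 56.2 to 74.8 CPM, and the log2 fold changes of 0.10, 0.16 and 0.24 (SEs 0.09, 0.09 and 0.10) were not called. The 95% intervals for CUL5, unadjusted for the number of genes, ran from -0.09 to 0.30, from -0.03 to 0.35 and from 0.03 to 0.45. Leaving out single libraries moved CUL5 between 0.022 and 0.21, between 0.084 and 0.27 and between 0.17 and 0.36. CUL5 was called higher under 1 of the 22 alternatives in siNAE1 cells, 3 in siUBE2M cells and 7 in siURM1 cells. Without control replicate 3 it was at 0.27 in siUBE2M cells (adjusted p = 0.027, in a range of 0.014 to 0.54) and 0.36 in siURM1 cells (called, in a range of adjusted p from 1.8e-04 to 0.3, edgeR), and without siUBE2M replicate 3 at 0.25 in siUBE2M cells (adjusted p = 0.029).

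CUL3 (ENSG00000036257, chromosome 2, 224470150 to 224585397) is the scaffold of the BTB-domain receptors, among them KEAP1. Control libraries had 79.1, 79.6 and 79.2 CPM, and the siURM1 libraries 66.8 and 63.4 CPM. The siNAE1 libraries had 70.5, 79.4 and 68.4 CPM and the siUBE2M libraries 78.0, 76.1 and 72.4 CPM. Both siURM1 libraries lay below all others, and CUL3 fell there by 0.28 on the log2 scale (SE 0.08, adjusted p = 0.0047, edgeR). Its log2 fold changes of -0.12 and -0.07 in siNAE1 and siUBE2M cells (SE 0.07 each) were not called. In siNAE1 cells CUL3 was called lower with total counts (-0.25, adjusted p = 0.0043) and without siNAE1 replicate 2 (-0.19, adjusted p = 0.043), and was at 0.046 with GC and length trends removed, in a range of adjusted p from 0.0043 to 0.56 (edgeR). The siURM1 call was lost without siURM1 replicate 2 (log2 fold change -0.24, adjusted p = 0.075) and with trends in GC content and length removed (-0.17, adjusted p = 0.055), and the adjusted p ranged from 3.9e-04 to 0.075 over the alternatives (edgeR, DESeq2 and limma).

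CUL4A (ENSG00000139842, chromosome 13, 113208193 to 113267108) and CUL4B (ENSG00000158290, chromosome X, 120524609 to 120575794) are close relatives that both hold DDB1 and its receptors. CUL4A had 98.0, 88.8 and 93.3 CPM in control, and 79.0, 81.9 and 79.7 CPM in siNAE1 cells. It had 75.2, 78.0 and 71.4 CPM in siUBE2M cells and 66.8 and 71.7 CPM in siURM1 cells. Every knockdown library lay below every control library. The log2 fold changes were -0.22 (SE 0.07, adjusted p = 0.0077), -0.32 (SE 0.07, adjusted p = 2.9e-04) and -0.43 (SE 0.08, adjusted p = 3.2e-05, edgeR) in siNAE1, siUBE2M and siURM1 cells. The siNAE1 call was lost without control replicate 1 (-0.18, adjusted p = 0.051) and with GC and length trends removed (-0.10, adjusted p = 0.14), in a range of 1.3e-04 to 0.14 over the alternatives.

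CUL4B, like CUL4A, was lower in siUBE2M cells, and it was not called in the others. Its control libraries had 146, 147 and 152 CPM, and the siUBE2M libraries 123, 130 and 122 CPM, all lower than control. In siNAE1 cells it had 151, 147 and 145 CPM, which overlap control, and in siURM1 cells 157 and 158 CPM, just above control. CUL4B fell by 0.25 on the log2 scale in siUBE2M cells (SE 0.06, adjusted p = 0.0012, edgeR). Its log2 fold changes of -0.0078 (SE 0.06) in siNAE1 and 0.09 (SE 0.07) in siURM1 cells were not called. With GC and length trends removed it was called higher in siNAE1 (0.14, adjusted p = 0.022) and siURM1 cells (0.19, adjusted p = 0.0058, edgeR). The ratio of CUL4B to CUL4A FPKM was 1.67 to 1.85 in control, 2.01 to 2.13 in siNAE1, 1.83 to 1.91 in siUBE2M and 2.47 to 2.63 in siURM1 libraries. The log2 ratio was higher than in control by 0.21, 0.07 and 0.52 in that order, with no overlap in siNAE1 and siURM1 cells. Leaving out single libraries or using CPM gave 0.16 to 0.24, 0.026 to 0.10 and 0.47 to 0.56. An exact two-sided permutation test over libraries gave p = 0.1, 0.2 and 0.1 (adjusted p = 0.129, 0.225 and 0.129 over 9 such tests), where 0.1 is the smallest p these group sizes allow.

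CUL4A shares 523 bases at its start with PCID2, which lies on the opposite strand and had 729 to 1093 counts per library. The libraries kept the strand, but the strand setting of the counting is not given in the sources used here, so the 2 genes may share fragments. PCID2 was called higher in all 3 knockdowns (log2 fold changes 0.70, 0.38 and 0.28), the opposite direction to CUL4A. Its part in the CUL4A values was not tested. The processed pseudogenes CUL1P1 and CUL4AP1 had 0 counts in every library. Of the other genes listed across a scaffold of this class, AC005229.4, antisense at the start of CUL1, had 25 to 80 counts, and AC073052.1 and AC073052.2 in CUL3, MIR3611 in CUL2, MIR8075 in CUL4A and RF00019 and AP002433.1 in CUL5 had at most 11.

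**Figure D2:**
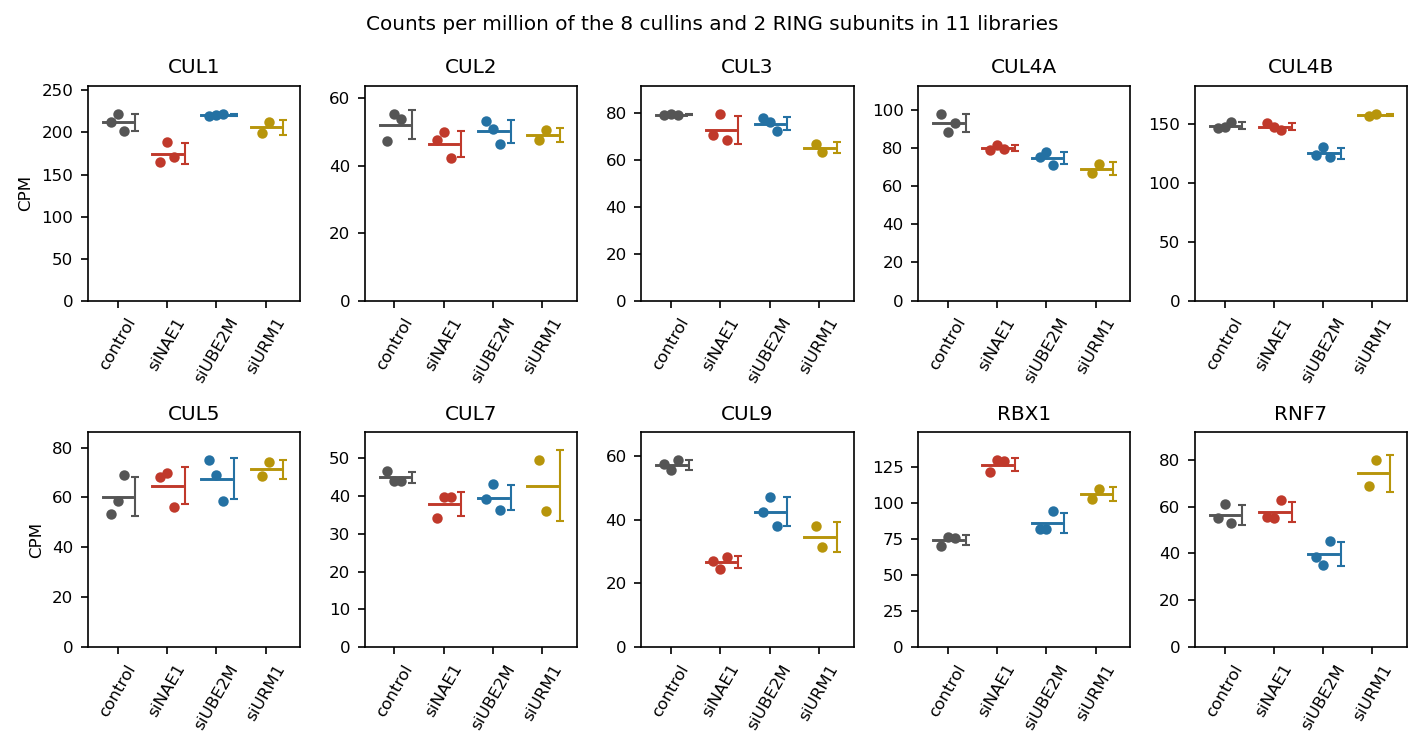
Library-scaled CPM of each member (y axis, from 0) in the 4 groups; points are libraries, horizontal lines group means and vertical lines SDs. CUL9 is lower in every knockdown library (24.5 to 47.0 CPM) than in every control library (55.7 to 58.6 CPM), and RBX1 is higher (82.1 to 130 CPM against 70.2 to 76.8 CPM).

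CUL7 and CUL9 are the large cullins. CUL7 (ENSG00000044090, chromosome 6, 43037617 to 43053945, minus strand) pairs with FBXW8 and the 3M complex proteins and is a binding partner of SV40 large T antigen, which these cells express. CUL9 (ENSG00000112659, chromosome 6, 43182175 to 43224587), also called PARC, is a cytoplasmic protein that binds p53 and has a RING-between-RING domain of its own. The genes lie near each other on chromosome 6.

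CUL9 showed the largest change of any member in each of siNAE1 and siURM1 cells. Its control libraries had 57.4, 55.7 and 58.6 CPM, and its siNAE1 libraries 27.2, 24.5 and 28.2 CPM. The siUBE2M libraries had 42.6, 47.0 and 38.0 CPM, and the siURM1 libraries 38.0 and 31.3 CPM. All 8 knockdown libraries lay below all control libraries, and the siNAE1 libraries lay lowest of all. CUL9 fell to 0.464 of control in siNAE1 cells (log2 fold change -1.11, SE 0.09, adjusted p = 8.6e-12), to 0.744 in siUBE2M cells (-0.43, SE 0.09, adjusted p = 1.6e-04) and to 0.607 in siURM1 cells (-0.72, SE 0.10, adjusted p = 6.6e-07, edgeR). Only 8.29%, 20.2% and 12.7% of tested genes had a lower log2 fold change in the same comparisons. All 3 calls held under each of the 22 alternatives run for each, where the log2 fold changes ranged from -1.23 to -0.84, from -0.49 to -0.35 and from -0.87 to -0.57. AL133375.1, an antisense gene listed within CUL9, had 0 counts in every library.

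CUL7 changed less. It had 46.7, 44.1 and 44.0 CPM in control, and 34.3, 39.6 and 39.7 CPM in siNAE1 cells. It had 39.2, 43.1 and 36.4 CPM in siUBE2M cells and 49.4 and 36.1 CPM in siURM1 cells. The siURM1 replicates stood on either side of the control group. CUL7 was called only in siNAE1 cells (log2 fold change -0.25, SE 0.10, adjusted p = 0.03, edgeR), and that call was lost without control replicate 1 (-0.22, adjusted p = 0.093), without siNAE1 replicate 1 (-0.18, adjusted p = 0.16) and in limma fits of the FPKM (adjusted p = 0.083 and 0.085), in a range of 0.0022 to 0.16 over the alternatives. The log2 fold changes in siUBE2M and siURM1 cells were -0.18 (SE 0.10) and -0.07 (SE 0.11). In siUBE2M cells CUL7 was called lower with total counts (-0.24, adjusted p = 0.048) and with GC and length trends removed (-0.21, adjusted p = 0.039), in a range of 0.039 to 0.35 (edgeR). In siURM1 cells it was at -0.31 without replicate 1 and 0.14 without replicate 2, not called in either. The gene KLC4 overlaps 13169 bases of CUL7 on the opposite strand, with 322 to 640 counts, and was itself lower in siNAE1 (-0.41) and siURM1 cells (-0.50) and not called in siUBE2M cells (-0.06). Its part in the CUL7 values was not tested.

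The level of the ratio of CUL7 to CUL9 depends on the lengths used. Main transcript lengths gave 8.24 FPKM for CUL7 and 7.31 FPKM for CUL9 in control cells. With the deposited FPKM the ratio was 1.64 to 1.77 in control libraries. It was 2.74 to 3.53 in siNAE1, 1.99 to 2.08 in siUBE2M and 2.51 to 2.83 in siURM1 libraries, with no overlap with control in any of them. The log2 ratio was higher by 0.86, 0.25 and 0.64 (0.76 to 0.94, 0.21 to 0.27 and 0.55 to 0.73 over the alternatives), and the exact two-sided permutation test gave p = 0.1 for each (adjusted p = 0.129), the smallest p allowed.

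The RING subunits recruit the ubiquitin-carrying enzyme. RBX1 (ENSG00000100387, chromosome 22, 40951347 to 40973309) serves CUL1 to CUL4B and CUL7, and RNF7 (ENSG00000114125, chromosome 3, 141738204 to 141747560), also called RBX2 or SAG, serves CUL5. RBX1 had 70.2, 76.8 and 76.0 CPM in control libraries, and 122, 130 and 130 CPM in siNAE1 libraries. It had 82.3, 82.1 and 94.5 CPM in siUBE2M cells and 103 and 110 CPM in siURM1 cells. No knockdown library overlapped the control group, and the groups followed each other without overlap in the order control, siUBE2M, siURM1, siNAE1.

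RBX1 rose 1.71-fold in siNAE1 cells (log2 fold change 0.77, SE 0.07, adjusted p = 5.5e-11), 1.16-fold in siUBE2M cells (0.22, SE 0.07, adjusted p = 0.013) and 1.43-fold in siURM1 cells (0.52, SE 0.08, adjusted p = 2.1e-06, edgeR). In these comparisons 89.5%, 66.7% and 85.6% of tested genes had a lower log2 fold change. The siNAE1 and siURM1 calls held under all 22 alternatives run for each. The siUBE2M call was lost with libraries scaled by total counts (0.16, adjusted p = 0.058), without control replicate 1 (0.18, adjusted p = 0.074) and without siUBE2M replicate 3 (0.15, adjusted p = 0.11), in a range of 3.5e-04 to 0.11.

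RNF7 went its own way. Its control libraries had 55.1, 61.1 and 53.1 CPM, and the siNAE1 libraries 55.4, 55.2 and 62.7 CPM, which overlap them. The siUBE2M libraries had 38.5, 35.1 and 45.4 CPM and lay below control. The siURM1 libraries had 68.6 and 79.7 CPM and lay above it. RNF7 fell to 0.703 of control in siUBE2M cells (log2 fold change -0.51, SE 0.09, adjusted p = 2.3e-05) and rose 1.31-fold in siURM1 cells (0.39, SE 0.10, adjusted p = 0.0013, edgeR). In siNAE1 cells the log2 fold change was 0.03 with a 95% interval from -0.15 to 0.21. The siURM1 call was lost without siURM1 replicate 2 (0.29, adjusted p = 0.066, in a range of 1.5e-05 to 0.066 over the alternatives), while the siUBE2M call held under all 22 alternatives. The pseudogene RNF7P1 had at most 1 count in any library, and AC112504.2, which overlaps 9087 bases of RNF7 on the same strand, at most 2.

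**Figure D3:**
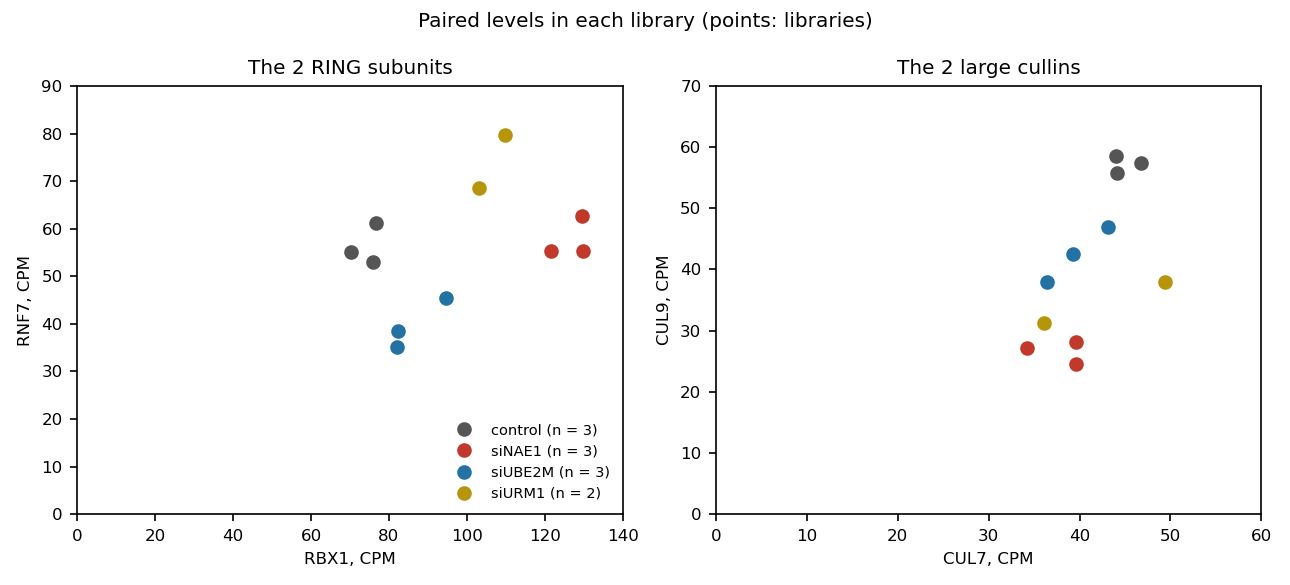
Levels of RBX1 and RNF7 (left, axes in CPM) and of CUL7 and CUL9 (right, axes in CPM) in the 11 libraries, with 1 point for each library. The siNAE1 libraries lie to the right of control at the same RNF7 level, the siUBE2M libraries lie below control in RNF7, and the siURM1 libraries are high in both RING subunits.

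The balance between the RING subunits followed from these values. RNF7 stood at 0.686 to 0.782 of the RBX1 FPKM in control libraries, 0.418 to 0.476 in siNAE1 and 0.421 to 0.472 in siUBE2M libraries, and 0.655 and 0.713 in siURM1 libraries. The log2 ratio was lower by 0.74 and 0.73 in siNAE1 and siUBE2M cells (differences of -0.74 and -0.73, exact two-sided permutation p = 0.1 and adjusted p = 0.129 for each, the smallest allowed). In siURM1 cells it differed by -0.13 and overlapped control (exact permutation p = 0.3, adjusted p = 0.3). Over the alternatives the differences ran from -0.80 to -0.69, from -0.79 to -0.68 and from -0.19 to -0.064. The level of the ratio depends on the lengths used, and with main transcript lengths RNF7 had 21.0 and RBX1 63.1 FPKM in control cells. The length does not touch the differences between groups. In siNAE1 cells only RBX1 was called, higher, and in siUBE2M cells RNF7 was called lower (-0.51) and RBX1 higher (0.22).

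As a description, the FPKM of the 8 cullins summed to 130 ± 2.49 in control (SD, n = 3), 113 ± 5.21 in siNAE1, 125 ± 2.94 in siUBE2M and 125 ± 1.92 in siURM1 cells (n = 2). That of the RING subunits summed to 41.6 ± 2.26, 58.6 ± 2.39, 40.1 ± 4.02 and 57.5 ± 4.02 in the same order. The ratio of RING to cullin FPKM was therefore 0.319 ± 0.0112 in control, 0.521 ± 0.0330 in siNAE1, 0.322 ± 0.0403 in siUBE2M and 0.462 ± 0.0252 in siURM1 cells. It was higher in every siNAE1 and siURM1 library than in every control library, and the siUBE2M libraries overlapped control. With main transcript lengths the ratio was 0.515 to 0.552 in control, 0.913 to 1.01 in siNAE1, 0.541 to 0.670 in siUBE2M and 0.770 to 0.820 in siURM1 libraries.

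The promoters of CUL9, RBX1 and RNF7 are shown because these members had the widest changes against control. RefSeq promoter windows, 250 bases before to 50 after a start on GRCh38.p14, were found for 9 of the 10 members (22 windows), and of each only the part before the deposited gene start is printed, on the plus strand. Capitals mark matches on either strand to GGGCGG (SP1), CCGGAAG (ETS), TGACGTCA (CRE) and CCAAT.
CUL9: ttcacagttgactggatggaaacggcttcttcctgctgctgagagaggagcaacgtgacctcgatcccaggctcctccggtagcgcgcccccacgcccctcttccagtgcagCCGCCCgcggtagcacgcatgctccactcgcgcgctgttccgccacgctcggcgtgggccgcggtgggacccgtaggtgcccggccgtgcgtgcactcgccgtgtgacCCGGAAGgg
RBX1: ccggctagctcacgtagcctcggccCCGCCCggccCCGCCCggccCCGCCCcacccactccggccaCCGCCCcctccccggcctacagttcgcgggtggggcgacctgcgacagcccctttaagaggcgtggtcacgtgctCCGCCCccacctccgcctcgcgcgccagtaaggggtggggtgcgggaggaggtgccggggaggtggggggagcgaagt
RNF7: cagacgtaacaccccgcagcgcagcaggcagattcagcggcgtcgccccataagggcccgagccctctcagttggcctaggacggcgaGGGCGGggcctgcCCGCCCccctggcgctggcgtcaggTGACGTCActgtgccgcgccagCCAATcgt

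The stretches are chr6:43181946-43182174 for CUL9, chr22:40951128-40951346 for RBX1 and chr3:141738048-141738203 for RNF7, and all are rich in G and C (69.0%, 76.7% and 71.2%). RBX1 holds 5 SP1 matches and none of the others searched. CUL9 has 1 SP1 match and 1 ETS match 9 bases before its start. RNF7 has 2 SP1 matches, a CRE match 30 bases and a CCAAT match 8 bases before its start. Over all 35116 windows, SP1 matches were in 45.0%, CCAAT in 34.6%, ETS in 10.3% and CRE in 1.85%, and RNF7 was the only member with a CRE match in any window. The search also covered the TATA box as TATAAA (in 11.5% of windows), the NRF1 motif as GCGCATGCG (1.92%), the YY1 motif as AAGATGGCG (1.75%) and the ATF4 motif as TGATGCAA (0.866%), of which only YY1 matched a member, CUL4B. A match is a description of the letters and does not show a bound factor.

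Set against each other within that fit, the knockdowns differed in 5 members in each pair. Between siNAE1 and siUBE2M cells 44.3% of all tested genes were called, between siNAE1 and siURM1 cells 38.6%, and between siUBE2M and siURM1 cells 35.0%, so the share of members was again close to the background. CUL9, RBX1 and RNF7 were called in every pair, and each of the 3 groups enters more than 1 pair. Each knockdown had its own siRNA, dose and remaining level of the target. The parts of these cannot be told apart from that of the silenced gene.

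In siNAE1 relative to siUBE2M cells, CUL9 was lower by 0.68 on the log2 scale (log2 difference -0.68, SE 0.09, adjusted p = 4.9e-07) and CUL1 lower (-0.34, SE 0.06, adjusted p = 4.2e-05). RBX1 (0.56, SE 0.07), RNF7 (0.54, SE 0.09) and CUL4B (0.24, SE 0.06) were higher, with adjusted p-values from 8.0e-08 to 0.0017 (edgeR). In siNAE1 relative to siURM1 cells, CUL9 (-0.39), RNF7 (-0.36) and CUL1 (-0.24) were lower and RBX1 (0.26) and CUL4A (0.21) higher, with adjusted p-values from 0.0034 to 0.031. CUL1 was thus lower in siNAE1 cells than in each of the other knockdowns. Against siURM1, the calls of CUL1 (-0.20) and RNF7 (-0.25) were lost without siURM1 replicate 2 and those of CUL9 (-0.24) and RBX1 (0.21) without siURM1 replicate 1. The adjusted p-values in these fits were 0.095, 0.12, 0.18 and 0.13, the highest over the alternatives, and CUL9 ranged from -0.52 to -0.24. CUL4A kept its call under 15 of 22. All 5 calls between siNAE1 and siUBE2M cells held under all 22.

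The widest difference between knockdowns was that of RNF7, at 35.1 to 45.4 CPM in siUBE2M and 68.6 and 79.7 CPM in siURM1 cells, a log2 difference of -0.90 (SE 0.10, adjusted p = 1.0e-08, edgeR). Of the other members, CUL4B (-0.33, adjusted p = 1.9e-04) and RBX1 (-0.30, adjusted p = 0.0027) were lower in siUBE2M than in siURM1 cells. CUL9 (0.29, adjusted p = 0.024) and CUL3 (0.21, adjusted p = 0.039) were higher, although the CUL9 libraries of these groups met at 38.0 CPM and overlapped. The RBX1 call was lost without siURM1 replicate 2 (adjusted p = 0.053, in a range of 1.6e-04 to 0.053). The CUL9 call was lost in limma fits of the FPKM, without siUBE2M replicate 1 or 2 and without siURM1 replicate 2 (0.16, adjusted p = 0.39, in a range of 0.0057 to 0.39), and its log2 difference ran from 0.16 to 0.44. The CUL3 call was lost under 10 of the 22 alternatives (log2 differences from 0.11 to 0.25, adjusted p from 0.016 to 0.25). CUL9, RBX1 and RNF7 were thus called in every pair. CUL4B was called only in pairs with siUBE2M cells, and CUL1 only in pairs with siNAE1 cells. Several of the calls against siURM1 cells were lost when 1 library was left out, as given above. Without siURM1 replicate 2, CUL7 was called lower in siNAE1 (-0.39, adjusted p = 0.013) and siUBE2M cells (-0.32, adjusted p = 0.042) than in siURM1 cells, in ranges of 0.013 to 0.75 and 0.042 to 0.75 (edgeR, DESeq2 and limma). With GC and length trends removed, CUL3 was called higher in siNAE1 than in siURM1 cells (0.21) and CUL4A higher in siNAE1 than in siUBE2M cells (0.22).

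The other genes of the machinery give the setting for these values. A list of 40 genes that bind, switch or work with cullins was used, and all 40 passed the filter. The calls numbered 29 for siNAE1 (17 up, 12 down), 28 for siUBE2M (13 up, 15 down) and 22 for siURM1 (14 up, 8 down), with median log2 fold changes of 0.12, -0.07 and 0.11. Of all tested genes, 54.7% were called in siNAE1 cells (27.6% up, 27.1% down), 45.3% in siUBE2M cells (22.7% up, 22.6% down) and 41.6% in siURM1 cells (20.8% up, 20.8% down), and the counts by role below stand beside these shares. The roles hold 3 to 11 genes each, so a count in a role was not tested. The count for siNAE1 and siUBE2M cells includes the silenced genes NAE1 and UBE2M themselves, each lower in its own knockdown.

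Of the 5 adaptors that tie cullins to substrate receptors, all 5 rose in siNAE1 cells, 4 rose and 1 fell in siUBE2M cells, and 4 rose in siURM1 cells, beside 27.6%, 22.7% and 20.8% of all tested genes called higher. SKP1, the adaptor of CUL1 and the F-box proteins, rose from 68.3 CPM to 101, 88.1 and 102 CPM in siNAE1, siUBE2M and siURM1 cells (log2 fold changes 0.57, 0.37 and 0.58). DDA1, a small partner of DDB1 in the CUL4 ligases, rose from 48.5 to 85.3, 63.4 and 60.8 CPM (0.81, 0.39 and 0.33). The adaptor that was lower in siUBE2M cells was ELOC, the elongin C of CUL2 and CUL5 (-0.36, adjusted p = 1.9e-04, edgeR), which was named after its values were seen. It was higher in siNAE1 cells (0.20) and not called in siURM1 cells (0.14).

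Of the 3 partners of CUL7, 2 were lower in siNAE1 cells, 2 in siUBE2M cells and 1 in siURM1 cells, and none was higher, beside 27.1%, 22.6% and 20.8% of all tested genes called lower. FBXW8, the F-box protein that joins CUL7 to SKP1, had log2 fold changes of -0.56, -0.31 and -0.07, the last of which was not called. OBSL1, a member of the 3M complex, had -0.12, -0.56 and -0.19, the first of which was not called. The CUL7 partners and CUL7 itself thus showed no call above control in any knockdown.

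Of the 10 genes that attach NEDD8, the calls numbered 7 for siNAE1 (3 up, 4 down), 8 for siUBE2M (4 up, 4 down) and 6 for siURM1 (4 up, 2 down). These counts stand beside 54.7%, 45.3% and 41.6% of all genes called in either direction. NEDD8 itself, named after its values were seen, rose from 34.3 CPM to 59.1, 44.9 and 42.9 CPM (log2 fold changes 0.78, 0.39 and 0.32, adjusted p = 7.6e-09, 7.4e-04 and 0.011, edgeR). NAE1 was higher in siUBE2M and siURM1 cells (0.28 and 0.38), and UBE2M was lower in siNAE1 and siURM1 cells (-0.16 and -0.37). DCUN1D3, which helps to place NEDD8 on cullins, was higher in siURM1 cells (0.59) and siNAE1 cells (0.37) and not called in siUBE2M cells (0.09). Of the 11 genes that remove NEDD8, the calls numbered 7 for siNAE1 (5 up, 2 down), 6 for siUBE2M (1 up, 5 down) and 7 for siURM1 (4 up, 3 down), beside the same shares. SENP8, the protease that matures NEDD8 and clears it from other proteins, was at 12.1 CPM in control and 4.26, 7.49 and 7.62 CPM in the knockdowns (log2 fold changes -1.50, -0.70 and -0.67, adjusted p = 2.1e-09, 2.5e-04 and 0.0015, edgeR).

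Of the 3 genes of exchange and inhibition, 1 rose and 2 fell in siNAE1 cells, 1 rose and 1 fell in siUBE2M cells, and 1 fell in siURM1 cells, beside 54.7%, 45.3% and 41.6% of all genes called. GLMN, which covers the RING of RBX1, was lower in all 3 knockdowns (-0.33, -0.44 and -0.27). CAND2, a relative of the exchange factor CAND1, was lower in siNAE1 cells (-0.44), with -0.12 in each of the others, not called. Of the 5 genes that transfer ubiquitin on cullin ligases, 1 rose and 2 fell in siNAE1 cells, 2 fell in siUBE2M cells and 1 fell in siURM1 cells, beside the same shares. UBE2R2, an enzyme that builds ubiquitin chains on SCF substrates, was lower in siNAE1 and siUBE2M cells (-0.44 and -0.68) and not called in siURM1 cells (0.01). ARIH2, which acts with CUL5 and RNF7, was called only in siURM1 cells (-0.21). Of 3 relatives with a cullin or RING fold, 2, 3 and 2 rose in siNAE1, siUBE2M and siURM1 cells and none fell, beside 27.6%, 22.7% and 20.8% of all genes called higher. ANAPC11, the RING subunit of the anaphase-promoting complex and a relative of RBX1, rose from 82.5 CPM to 114, 113 and 161 CPM (0.46, 0.45 and 0.96).

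To place the members with the largest summed changes, the genes nearest to CUL9 and RBX1 were sought among the 10467 genes whose mean level reached 10 CPM, by the Euclidean distance of their log2 CPM from the control mean over the 11 libraries. Those nearest to CUL9 were MDC1, a mediator of the DNA damage response (distance 0.293), the protease BACE1 (0.377) and the transcription factor FOXC1 (0.377). For MDC1 the values were -1.05, -0.51 and -0.72 on the log2 scale, in the order siNAE1, siUBE2M, siURM1. Those nearest to RBX1 were SDHB, a subunit of respiratory complex II (0.143), ATP5MC3, a subunit of the ATP synthase (0.164), and EIF4A2, a translation initiation helicase (0.186). For SDHB they were 0.73, 0.23 and 0.53. Nearness here describes these 11 libraries and nothing more.

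The GC content and length of genes moved with some of the comparisons. From the fifth of tested genes lowest in GC content to the highest, the median log2 fold change ran from -0.11 to 0.09 in siNAE1 cells, from -0.02 to 0.01 in siUBE2M cells and from -0.09 to 0.08 in siURM1 cells. CUL5 has a GC content of 35.8%, lower than all but 3.37% of tested genes, while CUL9 (58.4%) and CUL7 (59.7%) are rich in GC. With both trends removed, an alternative chosen after seeing the data, CUL5 was called higher in all 3 knockdowns (0.27, 0.21 and 0.37), and CUL4B was called higher in siNAE1 (0.14) and siURM1 cells (0.19). CUL7 was called lower in siUBE2M cells (-0.21). The calls of CUL9, RBX1 and, in siUBE2M and siURM1 cells, RNF7 remained under it.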

How the data were processed

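Polyadenylated RNA of 11 HEK293T libraries was sequenced in pairs of reads. Per the labels, the submitters' processing notes name fastp, HISAT2 2.0.5, featureCounts 1.5.0-p3 and DESeq2 1.20.0 on GRCh38. The authors deposited whole-number counts of fragments per gene, without normalization, and FPKM values per listed gene length. These FPKM differ from counts divided by library total and length by a factor that varies between libraries, so they carry a further scaling. The annotation version and strand setting are not given in the sources used here.

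The deposited counts were filtered (filterByExpr), scaled by TMM and tested for 18368 genes in a quasi-likelihood fit with 4 groups (edgeR 4.0.16, R 4.3.3), with Benjamini-Hochberg adjustment over all tested genes and a threshold of 0.05. CPM are TMM-scaled. Biological variation between replicates was 7.06%. Ratios were tested by exact two-sided permutation. The scripts were tested on simulated data. The text names all members, the silenced genes, overlapping genes and pseudogenes, the called partner gene with the largest change per role and knockdown, partners past 2-fold, and the 3 genes nearest to each of the 2 members that changed most. Members and lists were chosen with earlier results of these data known. The partner and marker lists were written from general knowledge.

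Alternatives were DESeq2 1.42.0, RLE, upper quartile and total count scaling, other filters, 2 groups per fit, a replicate block, limma 3.58.1 on log2 FPKM with pseudocounts of 1 and 0.1, a minimum FPKM of 1, a 2-fold threshold, leaving out each library, and, chosen after seeing the data, removal of GC and length trends. Replicate numbers did not pair the libraries (correlations of same-numbered deviations from -0.066 to 0.079). Coordinates are those of the deposited table and transcripts those of GENCODE v44, both on GRCh38, and promoters are from RefSeq. Tables and plots used Python 3.11.15, pandas 2.3.3, Biopython 1.88 and matplotlib 3.10.9.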

Additional observations from a re-analysis of the deposited data

Results flagged for a closer look

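RNF7 differed between knockdowns by a direct test. It was lower in siUBE2M and higher in siURM1 cells than in control, and the log2 difference of siUBE2M from siURM1 cells was -0.90 (adjusted p = 1.0e-08, quasi-likelihood test of edgeR, adjusted by Benjamini-Hochberg). The range of that difference over 22 alternatives was -1.01 to -0.80. The rise in siURM1 cells against control was 0.29 without siURM1 replicate 2, and its call was lost. All 3 siUBE2M libraries lay below all control libraries, and both siURM1 libraries lay above them. The siRNA, its dose and the depth of silencing differ between these knockdowns and cannot be told apart from the silenced gene.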

How the results depend on the processing

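Over 22 alternatives for each of 10 members and 6 comparisons, 1232 of 1320 values kept their direction and their side of the threshold, 38 lost a call, 23 gained one and 27 changed sign. Each change of sign was in a member not called in the reported fit, and 1 of them, CUL4B in siNAE1 cells with GC and length trends removed, was then called higher (0.14, adjusted p = 0.022, edgeR, in a range of 0.022 to 1.0 over the alternatives). With a 2-fold threshold, 1 member was called in siNAE1 against control and 0 in each other comparison, and 2, 1 and 0 partner genes in siNAE1, siUBE2M and siURM1 cells. Scaling by total counts put the median log2 fold change of all genes at -0.127, -0.0498 and -0.111, beside -0.0021, 0.0075 and -0.021 as reported, and turned CUL1 in siUBE2M (-0.00077), CUL4B in siURM1 (-0.0022), CUL5 in siNAE1 (-0.020) and RNF7 in siNAE1 cells (-0.093). Removing GC and length trends turned CUL1 (0.0083) and CUL2 (0.0063) in siURM1, CUL3 (0.046) and CUL4B (0.14) in siNAE1 cells, CUL2 in siUBE2M against siURM1 (-0.021), and CUL3 (0.10) and CUL5 (0.058) in siNAE1 against siUBE2M. The cause was not tested.

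Leaving out 1 library at a time gave 3 to 6 called members for siURM1 against control (3 without siURM1 replicate 2), 2 to 5 for siNAE1 against siURM1 (2 without siURM1 replicate 1 and 3 without siURM1 replicate 2) and 3 to 5 for siUBE2M against siURM1 (3 without siUBE2M replicate 1, siUBE2M replicate 2 or siURM1 replicate 2). A lone siURM1 library is assumed to vary like the other groups. Log2 fold changes that changed sign ranged from -0.082 to 0.0075 for CUL1 in siURM1, -0.022 to 0.011 for CUL4B in siNAE1, -0.31 to 0.14 for CUL7 in siURM1 and -0.028 to 0.095 for RNF7 in siNAE1 cells. In siNAE1 against siUBE2M they ranged from -0.12 to 0.000605 for CUL3, -0.15 to 0.043 for CUL5 and -0.12 to 0.0026 for CUL7. In siUBE2M against siURM1 they ranged from -0.017 to 0.082 for CUL2, -0.16 to 0.013 for CUL5 and -0.32 to 0.13 for CUL7, and in siNAE1 against siURM1 from -0.39 to 0.066 for CUL7. The replicate block, for numbers that did not pair the libraries, left 5 members called in each comparison.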
